A study of Mus musculus with 12 samples.

Results

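miR-7 is a short regulatory RNA that was measured here as 2 rows of the miRNA count tables, mmu-miR-7a and mmu-miR-7b. They were chosen by name, without their star forms, and are 2 of 469 miRNA names listed in any of the count files. A filter on low counts, a total of 2 or more in either region, left 431 miRNAs, and both paralogs passed it. Small RNA was sequenced from untreated male C57BL/6J mice of 8 weeks, with no transgene or treatment in either group, in frontal cortex (FCx, cortical tissue from 1 coronal slice of the brain) and in the whole hippocampus (HP). Tissue of 3 mice was pooled for each region before RNA was extracted. The RNA of each pool was made into 3 libraries that differ in the tag next to which the small RNA is ligated, index 3 (UUAGGC), index 7 (CAGAUC) or index 11 (GGCUAC). Each of the 6 libraries was run in a lane of its own and in a lane shared with the others of its region, and the counts of both runs were summed. The libraries of a region therefore come from RNA of 1 tissue pool: their spread is technical and holds the effect of the index, and the animals were not measured one by one. A library is named below by its region and index.

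A miRNA is cut from a hairpin precursor, first in the nucleus by Drosha and then in the cytoplasm by Dicer, and 1 strand of the resulting duplex, the guide, is held by an Argonaute protein. The other strand, the star or passenger strand, is mostly degraded. Pairing of the seed, bases 2 to 8 of the guide, with a messenger RNA lowers its translation and stability. miR-7 is one of the oldest animal miRNAs, and in mammals it is known from neurosecretory cells of the hypothalamus, from the pituitary and from pancreatic islets. In brain it binds the circular RNA Cdr1as, which carries many miR-7 sites, while the long noncoding RNA Cyrano directs its destruction. In tissue, a lower level of a miRNA can mean fewer cells that make it or less of it per cell, and these cannot be told apart.

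The mouse genome holds 3 miR-7 hairpins that give 2 guides. The guides are shown with the seed in capitals as RefSeq lists them, because the measurements turn on how little they differ.
mmu-miR-7a-5p: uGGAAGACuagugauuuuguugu
mmu-miR-7b-5p: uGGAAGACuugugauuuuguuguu
The seed GGAAGAC is the same in both, and no other of the 1679 mature mouse miRNA names in RefSeq has it. Over the 23 positions that both sequences hold, they differ at 1, A10U, counted from 1 at the 5′ end with the miR-7a base first. In the next pair of lines the differing base is in capitals.
miR-7a guide, all letters shared: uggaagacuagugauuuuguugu
miR-7b guide, differing base: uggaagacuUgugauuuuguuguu
The authors aligned reads to mature miRNAs with up to 2 mismatches, which is more than separates the guides, and a read with an error at position 10 can be counted for the other paralog. The deposited counts do not show mismatches, so the part of this in the counts was not tested.

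The 3p arms of the hairpins differ more. They are shown with every base in capitals that differs from the 3p arm of miR-7a-1, because they alone can tell the miR-7a hairpins apart.
mmu-miR-7a-1-3p: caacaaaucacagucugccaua
mmu-miR-7a-2-3p: caacaaGucCcagucugccaCa
mmu-miR-7b-3p: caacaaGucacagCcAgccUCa
miR-7a-1-3p differs from miR-7a-2-3p at 3 positions (A7G, A10C and U21C) and from miR-7b-3p at 5, and miR-7a-2-3p differs from miR-7b-3p at 4. Only the first of the 3p arms has a row of its own in the count tables, as mmu-miR-7a*.

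The hairpins lie on 3 chromosomes. They are shown in NCBIM37, the build of the deposited alignments, 5′ to 3′ on their own strand and with both mature arms in capitals.
miR-7a-1: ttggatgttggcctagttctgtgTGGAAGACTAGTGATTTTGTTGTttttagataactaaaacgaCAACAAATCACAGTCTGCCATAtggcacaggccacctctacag
miR-7a-2: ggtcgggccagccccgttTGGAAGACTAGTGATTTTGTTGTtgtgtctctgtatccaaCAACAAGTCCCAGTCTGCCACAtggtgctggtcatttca
miR-7b: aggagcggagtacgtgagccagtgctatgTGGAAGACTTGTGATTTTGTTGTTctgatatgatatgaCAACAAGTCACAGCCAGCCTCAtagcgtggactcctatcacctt
The gene of miR-7a-1, Mir7-1, is at chr13:58494140-58494247 on the minus strand, within an intron of Hnrnpk, which encodes an RNA-binding protein and is read from the same strand. The gene of miR-7a-2, Mir7-2, is at chr7:86033163-86033259 on the plus strand, between genes, with the coding gene Aen 7481 bases away. Mir7b is at chr17:56382411-56382521 on the plus strand, also between genes, with the coding gene Fem1a 13695 bases away. All 3 genomic sequences equal the RefSeq hairpins. The first 22 bases of the miR-7a guide occur without mismatch at 2 places in the genome, on chromosomes 13 and 7, and those of the miR-7b guide at 1.

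The libraries held from 391410 to 1461732 counts on miRNAs in FCx and from 3206221 to 4956117 in HP, so the FCx values rest on far fewer reads. Among the miRNA markers of other tissue, those of muscle, blood and liver gave overlapping ranges in both regions. Of the miRNAs listed for pituitary and endocrine tissue, miR-141 was at 5.11 to 96.5 CPM (counts per 1000000 counts on miRNAs) in FCx. miR-200c was at 56.8 to 193 CPM in FCx, and both were at 0 to 1.01 in every HP library. miR-375, the last of that list, was at 51.3 to 106 CPM in FCx and 81.3 to 110 in HP. The source of miR-141 and miR-200c in FCx was not tested. Neuronal miRNAs (miR-124, miR-128, miR-9 and miR-138) summed to 241841 to 272682 CPM in FCx and 103690 to 169876 in HP, a sum led by miR-128 (177013 to 208464 CPM in FCx), while miR-9 was higher in HP at every index.

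Both miR-7 paralogs were more abundant in HP than in FCx at each of the 3 indexes. miR-7a had 307 CPM in FCx with index 3, 86.9 with index 7 and 49.0 with index 11, from 120, 127 and 32 counts. In HP it had 1181, 388 and 129 CPM, from 3787, 1925 and 523 counts. The HP library was higher at every index, by 3.85, 4.47 and 2.63 times, although the regions overlapped when indexes were mixed, since FCx with index 3 lay above HP with index 11. Over the 3 libraries the mean and SD were 148 ± 139 CPM in FCx and 566 ± 548 CPM in HP.

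miR-7b had 112, 115 and 12.3 CPM in FCx with index 3, 7 and 11, from 44, 168 and 8 counts. In HP it had 332, 317 and 30.8 CPM, from 1066, 1572 and 125 counts. It was 2.96, 2.76 and 2.51 times higher in HP, with means of 79.9 ± 58.6 CPM in FCx and 227 ± 170 in HP. Here too the regions overlapped across indexes, because both libraries with index 11 were lower than all the others. Of the 431 miRNAs tested, 80 (18.6%) were higher in HP at all 3 indexes and 19 (4.41%) were at least 2 times higher at all 3, and both paralogs were among those 19.

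**Figure D1:**
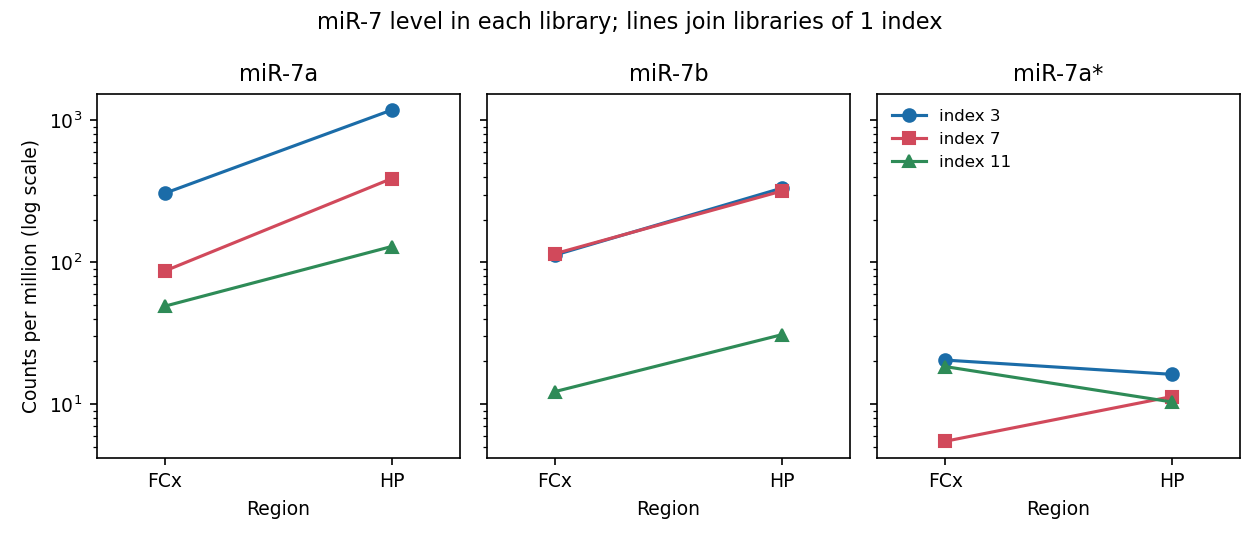
Level of miR-7a, miR-7b and the star form miR-7a* in each of the 6 libraries, in CPM on a log axis, with a line joining the FCx and the HP library of 1 index. Every line of miR-7a and miR-7b goes up from FCx to HP, by 2.51 to 4.47 times, and the highest and lowest index of a region lie further apart than the ends of a line, whereas miR-7a* goes up at index 7 only.

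Whether the region difference passed a test depended on how the index was treated. A first fit used the quasi-likelihood test of edgeR with library sizes scaled by TMM (the trimmed mean of log ratios) and had no term for the index. There miR-7a had a value of -2.45 ± 0.96 (log2 of FCx over HP, ± SE), with a Benjamini-Hochberg adjusted p of 0.742 in edgeR. The SE of each edgeR value was derived from the F statistic of its test. For miR-7b the value was -1.76 ± 1.06, with an adjusted p of 0.992 in edgeR. Neither passed the threshold of 0.05, and 0 of 431 miRNAs (0%) did in the direction of HP, while 3 did at an unadjusted p under 0.05. DESeq2 without the index also called 0, with 2 at an unadjusted p under 0.05. Without a term for the index, the spread of a region holds the whole difference between indexes, which for miR-7a is 6.25 times between the highest and the lowest FCx library and 9.15 times in HP.

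Libraries that share an index deviated together from the means of their regions, with r of 0.796, 0.846 and 0.854 across miRNAs for indexes 3, 7 and 11, so the index pairs them. With the index as a block, the edgeR quasi-likelihood fit gave miR-7a a log2 fold change of -2.26 ± 0.30 and a Benjamini-Hochberg adjusted p of 7.37e-12. For miR-7b the blocked edgeR fit gave -1.82 ± 0.31, with a Benjamini-Hochberg adjusted p of 1.22e-07. In this fit both paralogs were higher in HP, and 55 of 431 miRNAs (12.8%) were called in that direction. The scaling moved these values: TMM put the median of all miRNAs at -0.38, and with library totals in its place the median was -0.0061. Relative to the median, miR-7a lay at -1.88 and miR-7b at -1.44 under TMM, and at -1.85 and -1.46 with library totals. With library totals the log2 fold change of miR-7a was -1.85 ± 0.32 (adjusted p = 4.05e-07) and that of miR-7b was -1.47 ± 0.33 (adjusted p = 0.000179), in a blocked edgeR fit that called 20 miRNAs (4.64%) higher in HP and 36 higher in FCx, against 55 and 22 under TMM. Both paralogs were thus called higher in HP under either scaling. Since each region is 1 tissue pool, these p-values measure technical spread and say nothing of the spread between animals. The authors had already listed miR-7a as differentially expressed and higher in HP, by miRNA-Seq, microarray or both. Its call here is therefore not a new finding.

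The summed counts of the paralogs, which do not depend on a read being given to the right one, were 164, 295 and 40 in FCx with index 3, 7 and 11, and 4853, 3497 and 648 in HP. In CPM the sum was 3.61, 3.50 and 2.61 times higher in HP. Without the block its edgeR log2 fold change was -1.92 ± 0.91 and did not pass the test (Benjamini-Hochberg adjusted p = 0.9995). With the index as a block the edgeR fit gave -1.84 ± 0.26 and an adjusted p of 0.000168, where 12 of 430 miRNAs (2.79%) were called higher in HP.

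**Figure D2:**
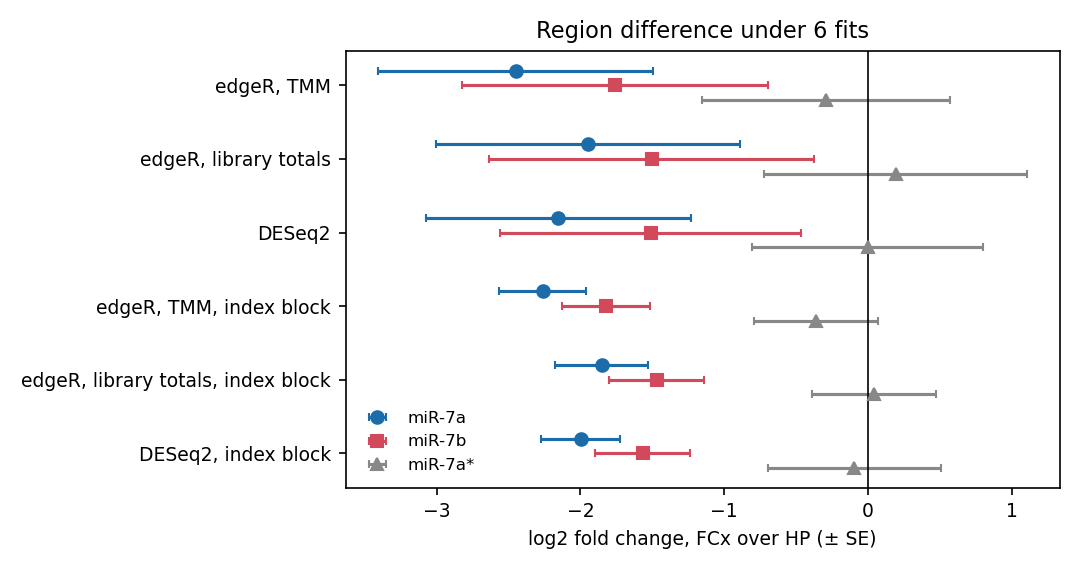
Log2 fold change of FCx over HP with its standard error for miR-7a, miR-7b and miR-7a* in 6 fits, 3 without and 3 with the index as a block. The standard errors of the edgeR fits were derived from the F statistic of the test. The values of miR-7a and miR-7b lie below 0 in all 6 fits and their bars are shorter with the block, whereas the bars of miR-7a* include 0 in every fit.

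The star strand of miR-7a-1 passed the test in none of the fits. miR-7a*, from the 3p arm of miR-7a-1, had 20.4, 5.47 and 18.4 CPM in FCx with index 3, 7 and 11 and 16.2, 11.3 and 10.4 CPM in HP, from 8, 8 and 12 counts and 52, 56 and 42 counts. It was higher in HP at index 7 only, and its log2 value for FCx over HP was -0.29 ± 0.86 without the block (edgeR, adjusted p = 0.992) and -0.36 ± 0.43 with it (edgeR, adjusted p = 0.672), at 0.04 with library totals and the block. Among the counts of miR-7a and miR-7a*, the star strand made up 6.25% in FCx against 1.35% in HP at index 3, 5.93% against 2.83% at index 7 and 27.3% against 7.43% at index 11. The share was higher in FCx at all 3 indexes, and Fisher's exact test on the counts of the library pair gave adjusted p of 0.000883, 0.0613 and 0.0005 over the 3 tests, two-sided. This comparison was added after the counts were seen, it compares reads of 2 libraries at a time and covers counting error only, and its FCx side rests on 8 to 12 star reads. The miR-7a counts come from both miR-7a hairpins and those of miR-7a* from miR-7a-1 only, so this share is not the arm balance of a hairpin. The 3p arm of miR-7a-2 is not in it, with 1, 1 and 2 alignments in FCx and 23, 46 and 21 in HP for index 3, 7 and 11. Over libraries, the log2 ratio of miR-7a to its star was 3.10 ± 1.46 in FCx and 4.98 ± 1.28 in HP (SD, n = 3), which did not pass the exact permutation test that ignores the pairing (two-sided, p = 0.3, where 0.1 is the smallest possible). Within indexes 3, 7 and 11 the difference of FCx minus HP was -2.28, -1.11 and -2.22, lower in FCx each time (exact sign-flip test, p = 0.25, the smallest 3 pairs allow).

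The balance of the paralogs varied more between indexes than between regions. miR-7a made up 73.2% of the miR-7a and miR-7b counts in FCx with index 3 (95% Wilson interval 65.9 to 79.4%) and 78.0% in HP (76.8 to 79.2%). With index 7 it made up 43.1% in FCx (37.5 to 48.8%) and 55.0% in HP (53.4 to 56.7%). With index 11 it made up 80.0% in FCx (65.2 to 89.5%) and 80.7% in HP (77.5 to 83.6%). These intervals cover counting error only. With index 3 and 11 miR-7a was thus the main paralog in both regions, at 2.73 to 4.18 counts for each count of miR-7b, whereas with index 7 it had 0.756 counts per miR-7b count in FCx, where miR-7b led, and 1.22 in HP.

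**Figure D3:**
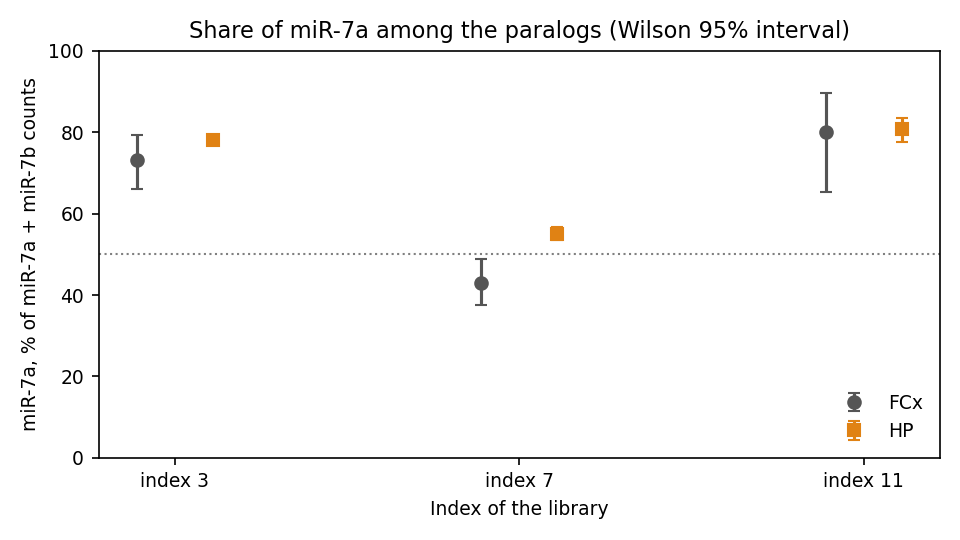
Share of miR-7a among the summed counts of miR-7a and miR-7b in each library, in percent, with its 95% Wilson interval and a dotted line at equal counts. Both libraries with index 7, at 43.1% and 55.0%, lie below the 4 libraries with index 3 or 11, which lie between 73.2% and 80.7%.

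For the regions, the log2 ratio of miR-7a to miR-7b averaged 1.01 ± 1.26 in FCx and 1.40 ± 0.96 in HP (SD, n = 3), which did not differ beyond the spread (difference -0.38, exact permutation test, two-sided, p = 0.6, smallest possible 0.1). Within an index the difference was -0.38, -0.70 and -0.06 for indexes 3, 7 and 11, with the lower share of miR-7a in FCx each time (exact sign-flip test over the 3 pairs, p = 0.25, the smallest 3 pairs allow). On pooled lanes alone the differences were 0.11, -0.67 and 1.78, so that the direction turned at index 3 and 11 (exact sign-flip test, p = 0.75). Fisher's exact test on the read counts found a difference in share at index 7 (adjusted p = 0.00028 over 3 tests, or 0.0931 on pooled lanes alone), and at index 3 (0.227) and index 11 (0.839) it did not pass. These tests compare 2 libraries, not the regions, and cover counting error only. The regions of 1 index differed in log2 ratio by 0.06 to 0.70, while the mean of both regions was 1.64 at index 3, -0.06 at index 7 and 2.03 at index 11. For the repeat runs of a library, the individual against the pooled lane, the test of the share passed in none of the 6 libraries (Fisher's exact test, lowest adjusted p = 0.522).

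The level of each paralog also varied with the index. With the region in the edgeR quasi-likelihood model, both index coefficients together gave a Benjamini-Hochberg adjusted p of 6.35e-10 for miR-7a and 1.34e-13 for miR-7b, in a test that called 264 of 431 miRNAs (61.3%), and 0.273 for miR-7a*. miR-7a was highest with index 3, at a log2 fold change of 1.39 ± 0.35 over index 7 (edgeR, adjusted p = 0.000406). In that test 41.8% of miRNAs were called in either direction. Without HP index 3 the value over index 7 was 0.86 and the call was lost. Over index 11, miR-7a with index 3 lay at 2.46 ± 0.38 (edgeR, adjusted p = 1.56e-09, 38.5% called). Its difference of index 7 over 11 was 1.06 ± 0.37 (edgeR, adjusted p = 0.00856, 50.6% called), and the call was lost without FCx or HP of index 7 or of index 11 (edgeR, adjusted p = 0.0709 to 0.353). For miR-7b, index 3 over 7 was -0.28 ± 0.34 and did not pass (edgeR, adjusted p = 0.570), and its sign changed with library totals, at 0.02. It was lower with index 11, by 2.81 ± 0.39 against index 3 and 3.10 ± 0.39 against index 7 (edgeR, adjusted p = 3.56e-11 and 1.15e-13).

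Other miRNAs that differ by 1 base were compared in the same way, as a description. Of 126 miRNAs without a star that averaged 100 CPM or more, 111 had a RefSeq sequence, and 10 pairs differed at 1 of the positions both sequences hold. The range of the log2 ratio over the 3 indexes was taken in each region, and the smaller of the 2 ranges was 1.77 for miR-7a and miR-7b, the third of the 10 pairs in order. It was 4.45 for miR-29a and miR-29c and 2.48 for miR-181b and miR-181d, while it was 0.23 for miR-103 and miR-107, 0.17 for let-7a and let-7f, and 0.13 for let-7b and let-7c. The median of the pairs was 1.13. The pairs with the widest ranges, miR-29a and miR-29c (C10U) and miR-181b and miR-181d (C12U), differ near the middle, as miR-7a and miR-7b do, but let-7a and let-7f (G12A) do so as well with a narrow range. In 4 of the 10 pairs, that of miR-7 included, the same index was highest and the same lowest in both regions.

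The genome alignments gave a second view of the same reads. At the 5p arms of the 2 miR-7a hairpins they held 120, 126 and 32 alignments in FCx with index 3, 7 and 11 and 3729, 1885 and 518 in HP, close to the miR-7a counts. At the miR-7b 5p arm they held 43, 166 and 8 alignments in FCx and 1010, 1541 and 118 in HP. From these alignments miR-7a made up 73.6%, 43.2% and 80.0% of both guides in FCx and 78.7%, 55.0% and 81.4% in HP, with index 7 again the lowest in both regions. On the opposite strand of the 3 hairpins there were 0 alignments in every library. Of the alignments at the miR-7a 5p arms, 69.8% to 81.7% were at miR-7a-2 in each library. The guide is the same at both hairpins and each read was given 1 place, so this split is that of the aligner and says nothing of which gene was transcribed.

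The 3p arms can be assigned to 1 gene each. Summed over 6 libraries, 169 alignments were at the 3p arm of miR-7a-1, 94 at that of miR-7a-2 and 40 at that of miR-7b. The miR-7a 5p arms held 6410 and the miR-7b 5p arm held 2886. In every library the 5p alignments outnumbered the 3p alignments for the summed miR-7a hairpins and for miR-7b. For either miR-7a hairpin alone this cannot be told, because the split of the shared guide is that of the aligner. In FCx with index 11, for example, miR-7a-1 had 9 alignments at its 5p arm and 11 at its 3p arm. The 3p arm of miR-7a-1 had 8, 8 and 11 alignments in FCx with index 3, 7 and 11 and 50, 52 and 40 in HP. That of miR-7a-2 had 1, 1 and 2 in FCx and 23, 46 and 21 in HP, and that of miR-7b had 2, 0 and 3 in FCx and 8, 13 and 14 in HP. miR-7a-1 made up 75.0% of the 36 3p alignments in FCx (95% Wilson interval 58.9 to 86.2%) and 53.2% of the 267 in HP (47.2 to 59.1%), and miR-7a-2 made up 11.1% (4.41 to 25.3%) and 33.7% (28.3 to 39.6%). The intervals of the regions overlap for miR-7a-1 and do not for miR-7a-2. These intervals are from reads summed over the libraries of a region and cover counting error only. The FCx reads are few, and no test over libraries was made of these shares. All 3 miR-7 hairpins therefore gave reads in HP at every index, and at least 1 read of each 3p arm was found in FCx, where miR-7b-3p was at 0 with index 7 (a count of 0 allows up to 3 reads).

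**Figure D4:**
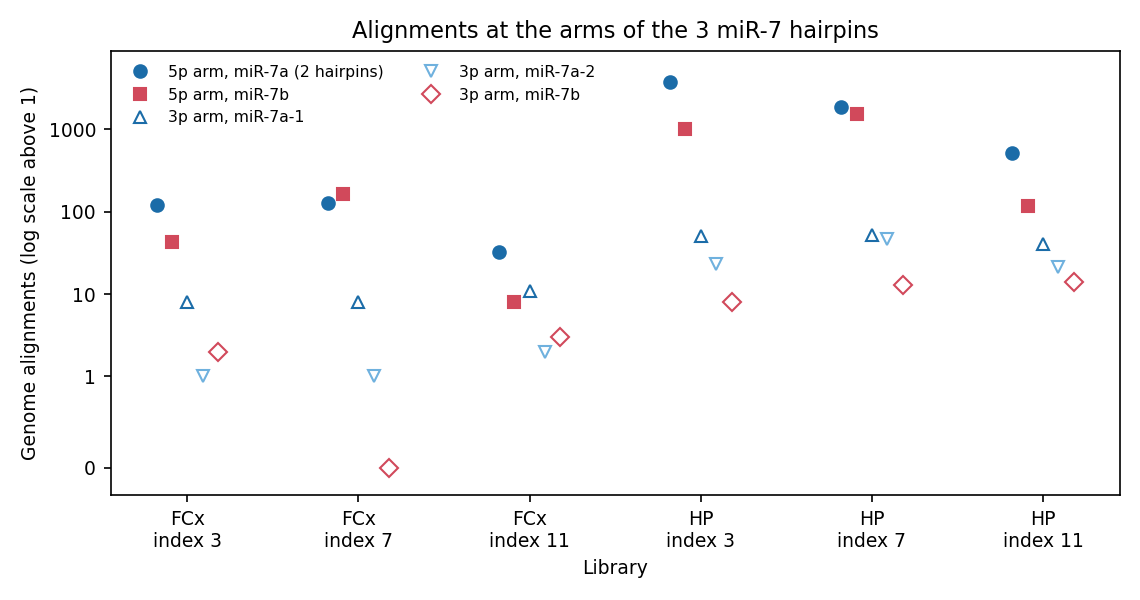
Alignments at the 5p and the 3p arms of the miR-7 hairpins in each library, on an axis that is logarithmic above 1 and reaches 0. The 5p arms (filled) lie above the 3p arms (open) of the same library for miR-7a, at 32 to 3729 alignments, and in each HP library the order of the 3p arms is miR-7a-1, miR-7a-2 and miR-7b.

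The ends of the reads also followed the index. Most alignments of the guides began at the annotated first base, 91.7% to 100% for miR-7a and 83.7% to 100% for miR-7b. Starts 1 base late were frequent mainly with index 3, at 7.5% in FCx and 6.92% in HP for miR-7a and at 16.3% in FCx and 10% in HP for miR-7b, where the median arm with at least 100 alignments had 0.889% and 0.778%. Larger shares than that of miR-7a were found at 13 of 88 arms in FCx and 21 of 147 in HP, and larger ones than that of miR-7b at 14 of 147 in HP. Starts 2 bases late were found mainly with index 7, at 3.17% in FCx and 3.61% in HP for miR-7a and at 2.41% and 2.99% for miR-7b, where the median arm had 0.0592% and 0.0401%. In HP with index 7, 7 of 166 arms had a larger share of such starts than miR-7a and 9 had a larger one than miR-7b. A late start by 1 or 2 bases moves the seed by as many.

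Alignments of 23 nt from the annotated start were frequent for miR-7a at index 11. They made up 37.5% of the miR-7a alignments in FCx (12 of 32, 95% Wilson interval 22.9 to 54.7%) and 27.03% in HP (140 of 518, 95% Wilson interval 23.4 to 31.0%), against 2.54% for miR-7b in HP (0.868 to 7.21%). In FCx miR-7b had 0 of 8 (0 to 32.4%), too few to tell it from miR-7a. With index 3 and 7 they were at 0 to 1.74% for miR-7a. In HP with index 11 none of the 139 arms with at least 100 alignments had a larger share than miR-7a, and the median arm had 0.557%. The individual and the pooled lane of that library gave 26.95% and 27.27%. No alignment in the files is longer than 23 nt and 68.3% to 90.3% in a library are exactly 22 nt, so the true lengths of the guides cannot be read from these files. The causes of the end patterns were not tested.

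**Figure D5:**
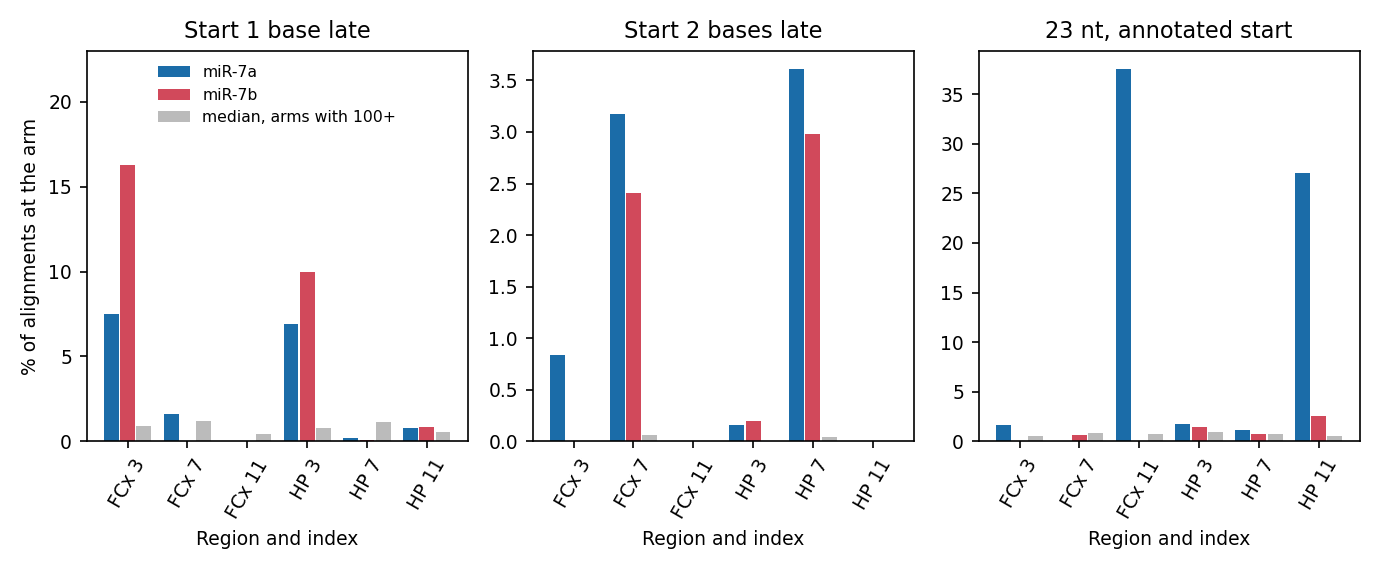
Share of the 5p alignments of miR-7a and miR-7b, in percent, that start 1 base late, that start 2 bases late, or that start at the annotated base and are 23 nt long, by region and index. Grey bars are the median over all arms with at least 100 alignments in that library, and each panel has its own linear axis from 0. Late starts by 1 base stand out with index 3 (6.92% to 16.3%), those by 2 bases with index 7 (2.41% to 3.61%), and 23 nt alignments of miR-7a with index 11 (27.03% and 37.5%).

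The miRNAs whose levels were most like those of the paralogs over the 6 libraries were found by Pearson's r of log2 CPM among 138 miRNAs, as a description in which region and index are mixed. For miR-7a they were miR-26a (0.99), miR-219 (0.86), miR-7b (0.84), miR-185 (0.82) and miR-495 (0.80). For miR-7b they were miR-21 (0.99), miR-26b (0.98), miR-152 (0.96), miR-136* (0.95) and let-7e (0.94), and miR-7a came at place 24. Since libraries of an index deviated together from their region means, such likeness need not concern the tissue, and its cause was not tested. miR-26a, for example, had 13597, 8510 and 6774 CPM in FCx with index 3, 7 and 11, the order that miR-7a had.

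Of the miRNAs tied to miR-7 by its circuit, miR-671 directs the cutting of Cdr1as. miR-671-5p had 0, 14.4 and 3.07 CPM in FCx with index 3, 7 and 11 and 3.74, 25.2 and 4.93 in HP, and miR-671-3p had 0, 10.3 and 9.196 in FCx and 0.312, 5.85 and 4.93 in HP. Neither of the 2 passed the test in either direction (edgeR, adjusted p = 0.992 for both without the block, and 0.203 and 0.595 with it). The median log2 fold change of the pair in the blocked fit was -0.18, beside -0.38 for all miRNAs tested.

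The other miRNAs listed for endocrine and neurosecretory cells were not called higher in HP. miR-375, an islet and pituitary miRNA, had 51.3 to 106 CPM in FCx and 81.3 to 110 in HP, and its log2 fold change was -0.66 ± 0.29 in the blocked edgeR fit (adjusted p = 0.0927). The 5 members of the miR-200 family on that list (miR-141, miR-200a, miR-200b, miR-200c and miR-429) were all higher in FCx in the blocked fit, for example miR-200b at 315 to 1847 CPM in FCx and 9.62 to 56.5 CPM in HP. Of the 6 listed miRNAs, 0 were called higher in HP, where 12.8% of all miRNAs were, and 5 were called higher in FCx, where 22 of 431 (5.1%) were. Their median was 5.19 beside -0.38 for all miRNAs tested. Without the block 1 of the 6, miR-200c, was called higher in FCx, where 2 of 431 (0.464%) were. In the blocked fit with library totals 0 of the 6 were called higher in HP, where 4.64% of all miRNAs were, and 5 in FCx. The list was chosen with earlier results of these data known. Its 5 miR-200 members had already been reported higher in FCx by the authors, so these counts are a description and no independent test.

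Choroid plexus and ependyma, which line the ventricle beside the hippocampus, were represented by 6 miRNAs whose summed level was 56.7 to 102 CPM in FCx and 108 to 276 CPM in HP. Of these, 4 were called higher in HP in the blocked fit with TMM (miR-34b-3p, miR-34b-5p, miR-34c and miR-204), 2 with library totals and 0 without the block, where the background was 12.8%, 4.64% and 0% of all miRNAs, and the other two, miR-211 and miR-449a, were at 0 to 5.11 CPM in all libraries. Of the 2 oligodendrocyte miRNAs, miR-219 had 340 to 1484 CPM in FCx and 383 to 1754 in HP and was called higher in HP in the blocked fit with TMM (-1.09 ± 0.30, edgeR, adjusted p = 0.00287) but not with library totals (adjusted p = 0.185), and at index 11 it was lower in HP, at 383 CPM against 507 in FCx. The other, miR-338-3p, had 112, 677 and 21.5 CPM in FCx with index 3, 7 and 11 and 121, 769 and 22.9 CPM in HP, and it was not called (-0.49 ± 0.30, edgeR, adjusted p = 0.288 in the blocked fit with TMM). These lists were also chosen with earlier results of these data known, and the part of these cell types in the miR-7 difference was not tested.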

How the data were processed

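miRNA-Seq of FCx and HP was analysed. The members and lists were chosen with earlier results of these data known. As deposited by the authors, the counts are unnormalized numbers of reads on each mature miRBase miRNA, 1 file per lane, made by index sorting, trimming, removal of short, mitochondrial and ribosomal reads, and Bowtie with up to 2 mismatches. The alignment files hold 1 NCBIM37 position per read, and the score the authors deposited beside it was not used.

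Both runs of a library were summed (n = 3 per region, totals of 391410 to 4956117). edgeR 4.0.16 (R 4.3.3) gave quasi-likelihood tests with TMM and Benjamini-Hochberg adjustment over 431 miRNAs with at least 2 counts in a region, with DESeq2 1.42.0 as an alternative. Every adjusted p of a miRNA is from edgeR unless another test is named. The SE of an edgeR value is its absolute log2 fold change divided by the square root of the F statistic. The index pairs FCx and HP libraries, with r of 0.796, 0.846 and 0.854 for the same index (log2 CPM, prior count 2). For unlike indexes r was -0.618 to -0.226. Deviations were taken from the mean of the 3 libraries of a region. With a positive r at the same index, this centring draws the others below 0, so they are no separate evidence. Shares, exact and Fisher tests used Python 3.11.15 and scipy 1.17.1, with pandas 2.3.3, numpy 2.4.6, pysam 0.24.0 and matplotlib 3.10.9.

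Reads at an arm are sense alignments that lie at the RefSeq arm placed in NCBIM37 (696 arms of 406 hairpins). RefSeq lists the guides at 23 and 24 nt, so pairs with 1 differing base were compared over the positions they share rather than at equal length. Where RefSeq lists both arms of a name, the arm with more alignments was taken. Named miRNAs are the paralogs, miR-7a*, the 5 most alike, the listed circuit, endocrine and cell type miRNAs, and pairs that differ by 1 base.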

Additional observations from a re-analysis of the deposited data

Results flagged for a closer look

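Reads at 3p arms that have no row in the count tables were present in the genome alignments. Summed over the 6 libraries there were 94 alignments at the 3p arm of miR-7a-2 and 40 at the 3p arm of miR-7b. On the opposite strand of these hairpins there were 0 alignments. No group of libraries was large enough for a search for single outlying values.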

How the results depend on the processing

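The direction of the region difference, with both paralogs and their sum higher in HP, was the same in every fit run, with and without the block. No fit without the block passed the threshold of 0.05 and every fit with the index as a block did. These tests cover technical spread within 1 tissue pool per region, not the spread between animals. For miR-7a, miR-7b and the sum in that order, the replicate block gave log2 fold changes of FCx over HP of -2.26, -1.82 and -1.84 with TMM, -1.85, -1.47 and -1.69 with library totals, -1.998, -1.57 and -1.83 with DESeq2, -2.23, -1.61 and -1.96 on individual lanes and -2.12, -2.06 and -1.999 on pooled lanes. With at least 10 counts in every library the block gave -2.02 for miR-7a and -1.85 for the sum, while miR-7b, with 8 counts in 1 library, could not be fitted. The 2 lane choices and the stricter filter with the block were added after seeing the data. With 1 index left out of the blocked fit the values ranged from -2.09 to -2.01 (-2.05 without index 11), from -1.85 to -1.49 (-1.53 without index 3) and from -2.03 to -1.82. Without the block and 1 library at a time they ranged from -2.99 to -1.32, from -2.10 to -1.02 and from -2.33 to -1.35.

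Merging the paralogs into 1 row moved the blocked TMM median of all miRNAs from -0.38 to -0.13 and the calls higher in HP from 55 to 12, so the TMM scaling of these 6 libraries is not stable, and the cause was not tested. Calls in the blocked fit, higher in FCx and in HP, were 22 and 55 with TMM, 36 and 20 with library totals and 27 and 14 with DESeq2, against 2 and 0 in the TMM fit without the block, 12 and 0 with DESeq2, and 13 and 1 when edgeR's exact test took the 12 lane files as samples.

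Between indexes, the miR-7a value for index 7 over 11 was 0.74 without a filter (adjusted p = 0.0654) and ranged from 0.64 to 1.24 with 1 library left out, where it lost the call without FCx index 7, FCx index 11, HP index 7 or HP index 11. For index 3 over 7 it ranged from 0.86 to 1.65 and lost the call without HP index 3 (adjusted p = 0.163). For index 3 over 11 it ranged from 2.11 to 2.56. miR-7b for index 3 over 7 changed sign with library totals (0.025) and without FCx index 7 (0.18, range -0.85 to 0.18).

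The FCx minus HP difference in log2 ratio was -0.38, changed sign on pooled lanes (0.41) and without FCx index 7 (0.33), and ranged from -0.93 to 0.33 with 1 library left out. The mean log2 ratio at index 11 was 2.03, 1.89 on individual lanes and 2.57 on pooled lanes, where FCx had 11 counts of miR-7a and 1 of miR-7b. In comparisons added after seeing the data, the FCx minus HP difference in the share of miR-7a on pooled lanes was 1.33 percentage points at index 3, -11.5 at index 7 (Fisher's exact test, adjusted p = 0.0931) and 15.4 at index 11, against -4.86, -12.0 and -0.71 on both lanes. Depth limits the FCx values, such as the 8 counts of miR-7b at index 11.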
